A study of Mus musculus with 31 samples.

Results

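The set comprises 6 glutathione transferases, Gsta2, Gsta3, Gsta4, Gstm1, Gstm2 and Gstt1, and the alcohol dehydrogenase Adh1, in whole fetal mouse gonads of 2 genotypes. Its members were chosen by name, with earlier results of these data known. Each gene was read from the probe set, among those annotated to that gene alone, with the highest mean over 31 arrays. All 7 members had such a probe set, 11 probe sets in total, and they were 7 of 18194 genes tested. The tested genotype was Wv/Wv, homozygous for a point mutation of the receptor kinase Kit that lowers its activity throughout the body, set beside wild-type gonads. The groups were Wv/Wv testes at 12, 14 and 16 dpc (days post coitum) with 3, 2 and 3 arrays, wild-type testes with 1, 3 and 3, Wv/Wv ovaries with 2, 3 and 3, and wild-type ovaries with 2, 3 and 3. No agent was given to any group in the labels, and each array carried 1 RNA sample. The labels name biological replicates but do not say whether each was 1 embryo or a pool, so p-values cover the spread between these samples only.

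Glutathione transferases join glutathione to reactive compounds, which makes them more soluble and easier to export. The alpha class, to which Gsta2, Gsta3 and Gsta4 belong, also reduces lipid peroxides, and in human the GSTA3 protein isomerises a double bond in steroid precursors. Gstm1 and Gstm2 are of the mu class and Gstt1 is of the theta class, which acts on small halogenated compounds. Adh1 is the class I alcohol dehydrogenase, which oxidises ethanol and retinol. In the adult mouse these enzymes are best known from the liver, and alpha-class transferases are also found in steroid-making cells. The gene table places Gsta2 and Gsta4 on chromosome 9, Gstm1, Gstm2 and Adh1 on chromosome 3, Gsta3 on chromosome 1 and Gstt1 on chromosome 10.

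The set had been described as detoxifying enzymes of the fetal testis, and for part of it the signals were highest in testes. The members were chosen with earlier results of these data known, so this order describes the signals and does not test that name. Enzyme activity was not measured. For Gsta2, Gsta3, Gsta4 and Adh1, the 6 testis groups had the 6 highest means and the 6 ovary groups the 6 lowest. Gstm1 and Gstm2 had their lowest means in the ovaries at 12 dpc, where the arrays still read 9.66 to 10.10 and 9.60 to 10.11. Gstt1 had its highest mean in Wv/Wv ovaries at 16 dpc. The 7 genes are therefore called by their own names here.

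The promoter-side sequence of 3 testis-high members is shown, since their means moved together over the 12 groups. Each is the 250 bases before the annotated start, from RefSeq on build GRCm38.p6, written 5′ to 3′ along the gene. The Gsta2 window is chr9:78347146-78347395 on the minus strand, the Gsta3 window is chr1:21240335-21240584 on the plus strand, and the Adh1 window is chr3:138277335-138277584 on the plus strand.
Gsta2: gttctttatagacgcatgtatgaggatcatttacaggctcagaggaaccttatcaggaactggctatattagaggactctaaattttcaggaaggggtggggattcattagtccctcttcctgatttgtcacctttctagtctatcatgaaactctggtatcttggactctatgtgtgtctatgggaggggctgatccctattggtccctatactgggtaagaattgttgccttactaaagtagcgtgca
Gsta3: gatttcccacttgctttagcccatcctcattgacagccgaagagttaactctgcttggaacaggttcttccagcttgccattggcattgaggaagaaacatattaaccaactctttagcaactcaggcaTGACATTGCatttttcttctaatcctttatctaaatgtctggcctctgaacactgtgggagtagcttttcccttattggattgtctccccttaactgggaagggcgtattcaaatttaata
Adh1: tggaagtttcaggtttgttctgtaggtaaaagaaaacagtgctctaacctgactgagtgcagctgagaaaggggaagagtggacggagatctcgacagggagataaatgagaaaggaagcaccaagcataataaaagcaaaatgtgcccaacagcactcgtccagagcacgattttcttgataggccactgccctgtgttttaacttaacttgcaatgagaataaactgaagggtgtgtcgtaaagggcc
Capitals in the Gsta3 window mark TGACNNNGC, the core of the antioxidant response element that Nrf2 binds, 121 to 113 bases before the start. Windows were available for 6 of the 7 members, 7 windows in all because Gstm1 has a second start, and both strands were searched. Of these 6 members 1 held TGACNNNGC, as did 10.2% of 32851 windows of this length across the genome. AAGGTCA, the short element of orphan nuclear receptors, was in 0 of the 6 and in 4.08% of all windows. The reverse complement of AAGGTCA begins with the same TGAC letters as the other motif. A match is a description of these letters and not a site of binding.

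The values are deposited log2 signals, so a difference of 1 is a doubling, and they can be compared between samples for 1 probe set but not between genes. A change is 1 group mean minus another, its error is the standard error that the fit to all arrays gives, and a gene was called at an adjusted p below 0.05. There are no detection calls, so signals below 5.39, the 40th percentile of all deposited values, are treated as low and a fold against them is given as a lower bound. The 31 arrays formed 2 classes by the SD of their values over all probe sets, 21 wide-spread arrays (2.33 to 2.39) and 10 narrow-spread ones (1.77 to 2.18), and the Gapdh 3′ minus 5′ difference also separated them (2.01 ± 0.19 and 0.70 ± 0.19, SD). Ovaries at 16 dpc were the most uneven, with 1 of 3 Wv/Wv arrays and all 3 wild-type arrays narrow. Wild-type testis 16 dpc array 1 stood apart with the lowest SD, and its members' signals were below both other arrays of that group for all 7 genes. Calls of the members are therefore given also from a class-adjusted fit, which has the class as a term and omits that array. All arrays at 12 dpc were wide-spread, so changes between groups of that age were the same in both fits and only their errors differed. In that fit the wild-type testis arrays at 16 dpc were all wide-spread and the wild-type ovary arrays all narrow-spread. The difference between them then rests on a class effect estimated from other groups. Germ cell markers checked the genotype: the mean level of 11 of them was 4.33 to 5.60 on Wv/Wv arrays and 7.36 to 10.40 on wild-type arrays. Wv is a point mutation, so the Kit signal itself checks nothing. The samples are bulk gonads, in which fewer cells of a type and less RNA per cell cannot be told apart.

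Gsta2, an alpha-class transferase, was higher in testes than in ovaries at 14 and 16 dpc, when every ovary array read under the low limit. At 16 dpc its signal was 10.34, 10.67 and 10.61 in Wv/Wv testes, against 3.50, 3.68 and 4.13 in Wv/Wv ovaries. In wild type it was 8.01, 10.65 and 10.36 in testes and 3.53, 3.75 and 4.03 in ovaries. Testis and ovary arrays were far apart in both genotypes. At 14 dpc the testes had 10.37 and 9.42 in Wv/Wv and 9.93, 10.25 and 9.97 in wild type, against 3.67, 3.75 and 3.61 in Wv/Wv ovaries and 4.40, 3.88 and 3.79 in wild-type ovaries. With ovary arrays set to the low limit, testes were at least 22.7-fold higher than ovaries at 14 dpc and at least 35.6-fold higher at 16 dpc in Wv/Wv. In wild type the bounds were at least 25.3-fold at 14 dpc and at least 19.5-fold at 16 dpc, and the bound at 16 dpc was 34.8-fold without testis array 1. The adjusted p was 5.55e-09 and 1.42e-10 in Wv/Wv and 8.38e-10 and 9.76e-10 in wild type at 14 and 16 dpc. Among narrow-spread arrays alone at 16 dpc, the Wv/Wv testis had 10.34 and the Wv/Wv ovary 3.68, and the wild-type testis had 8.01 against 3.53 to 4.03 in wild-type ovaries.

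Adh1 was also higher in testes, and its ovary signals were above the low range. It stood at 12.40, 12.90 and 12.78 in Wv/Wv testes at 16 dpc, against 8.51, 7.60 and 8.61 in Wv/Wv ovaries. Wild-type testes had 10.82, 12.60 and 12.61 at that age and wild-type ovaries 6.83, 6.25 and 7.25. No testis array overlapped an ovary array. The change, testis minus ovary, was 4.45 ± 0.41 in Wv/Wv (adjusted p = 6.51e-08) and 5.24 ± 0.41 in wild type (adjusted p = 4.1e-09), which are 21.9-fold and 37.7-fold. At 14 dpc it was 4.86 ± 0.46 in Wv/Wv (12.72 and 12.09 in testes, 8.21, 7.01 and 7.43 in ovaries). In wild type at 14 dpc it was 5.58 ± 0.41 (12.37, 12.44 and 12.21 in testes, 6.45, 6.74 and 7.08 in ovaries).

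Gsta3 was higher in testes at these ages as well. Its values at 16 dpc were 8.44, 8.45 and 8.37 in Wv/Wv testes and 4.63, 4.69 and 4.65 in Wv/Wv ovaries. In wild type they were 6.04, 8.50 and 8.21 in testes, against 4.68, 4.86 and 4.45 in ovaries. All ovary arrays at 16 dpc were low, and testes were at least 8.18-fold higher in Wv/Wv (adjusted p = 2.3e-07) and at least 4.58-fold higher in wild type (adjusted p = 1.04e-05), or 7.81-fold without testis array 1. The bounds at 14 dpc were at least 4.82-fold in Wv/Wv and at least 4.19-fold in wild type, where 1 of 3 ovary arrays was under the limit. A second Gsta3 probe set tracked the one used with r = 0.95 over the 31 arrays.

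Gsta4, the alpha-class enzyme that clears hydroxynonenal, a product of lipid peroxidation, differed less because ovaries also carried a high signal. At 16 dpc it read 11.35, 11.24 and 11.29 in Wv/Wv testes and 9.56, 9.38 and 9.76 in Wv/Wv ovaries. Wild-type testes read 9.48, 11.31 and 11.14, and wild-type ovaries 8.52, 8.99 and 8.76. The groups did not overlap, and the change was 1.73 ± 0.29 in Wv/Wv (adjusted p = 0.000268) and 1.89 ± 0.29 in wild type (adjusted p = 0.000109), or 3.31-fold and 3.70-fold. At 14 dpc it was 1.98 ± 0.33 in Wv/Wv and 1.71 ± 0.29 in wild type, both called. With the class adjusted, all of these calls of Gsta2, Gsta3, Gsta4 and Adh1 at 14 and 16 dpc held, with adjusted p between 9.25e-16 and 1.40e-08. The change of Gsta4 in wild type at 16 dpc was then 2.37 ± 0.18, a comparison in which sex and class coincided.

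At 12 dpc these 4 genes were less far apart. The class-adjusted fit gave the same changes at this age and differed only in their errors. Gsta2 read 6.13, 5.35 and 5.70 in Wv/Wv testes, against 5.12 and 5.49 in Wv/Wv ovaries, and the arrays overlapped. The single wild-type testis read 7.36, against 4.48 and 4.77 in wild-type ovaries, at least 3.93-fold higher. That change missed the threshold over all arrays (adjusted p = 0.0782) and was called with the class adjusted (6.79e-05). Adh1 was higher in testes by 1.15 ± 0.46 in Wv/Wv and 1.88 ± 0.61 in wild type, called in the class-adjusted fit only (adjusted p = 0.0184 and 0.00504). Gsta3 in Wv/Wv was likewise called in that fit only (adjusted p = 0.0273), but both ovary arrays were under the limit, and testes were at least 1.29-fold higher.

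**Figure D1:**
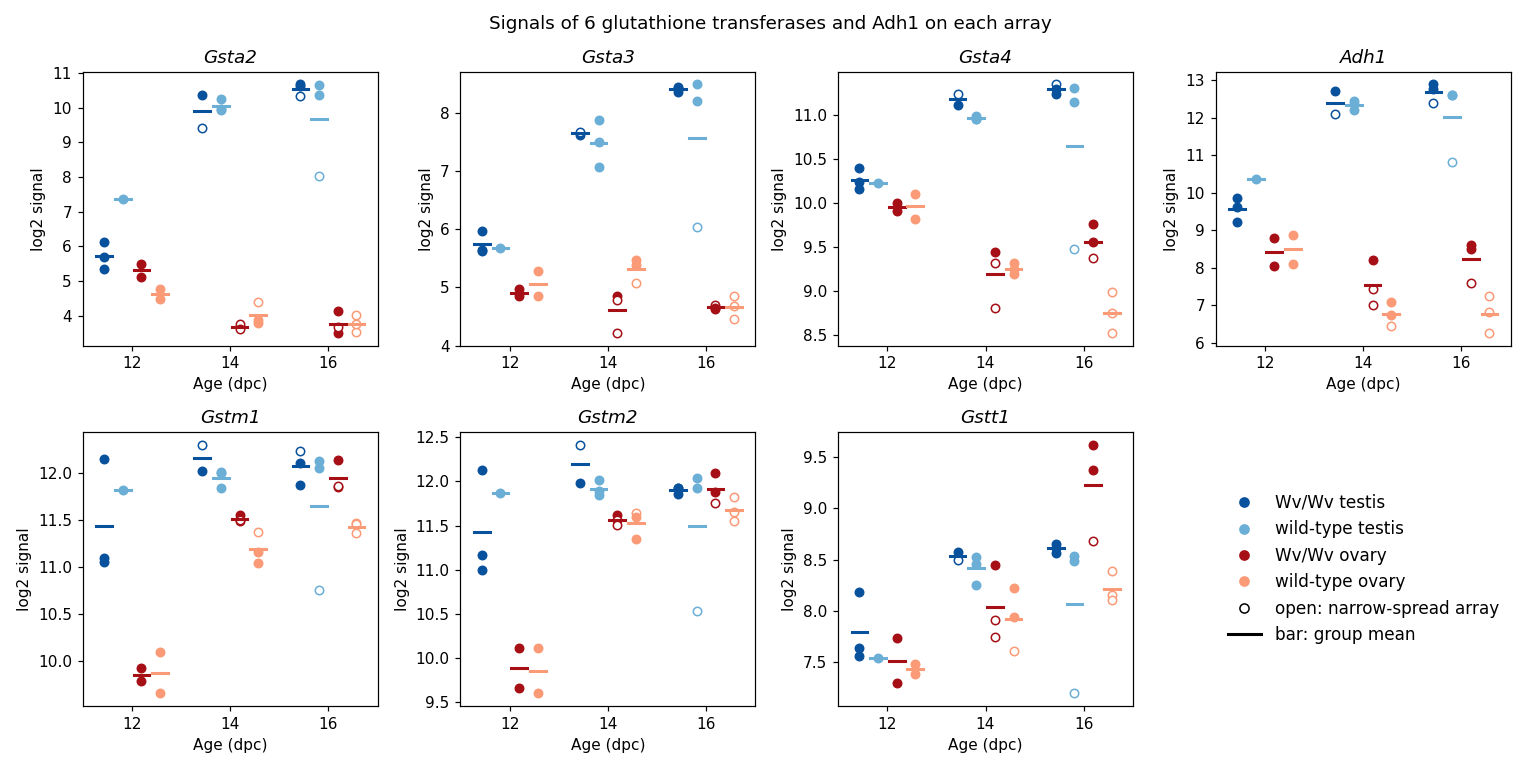
Log2 signal of each of the 7 enzymes (vertical axis) on each array by age in dpc (horizontal axis), with Wv/Wv testes, wild-type testes, Wv/Wv ovaries and wild-type ovaries side by side, bars at group means and open points for narrow-spread arrays. Gsta2, Gsta3, Gsta4 and Adh1 separate testes from ovaries at 14 and 16 dpc. Gstm1 and Gstm2 are lowest in ovaries at 12 dpc, where they stay above the low limit, and Gstt1 is highest in Wv/Wv ovaries at 16 dpc.

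Gstm1 and Gstm2, the mu-class members, differed between the sexes at 12 dpc. Gstm1 had 12.14, 11.06 and 11.10 in Wv/Wv testes at that age, against 9.79 and 9.93 in Wv/Wv ovaries. The single wild-type testis had 11.82 and the wild-type ovaries 9.66 and 10.10. Every testis array was above every ovary array, by 1.58 ± 0.31 in Wv/Wv (2.98-fold, adjusted p = 0.0162) and 1.94 ± 0.42 in wild type (3.84-fold, adjusted p = 0.0457). Gstm2 read 12.13, 11.00 and 11.17 in Wv/Wv testes and 9.66 and 10.11 in Wv/Wv ovaries, a change of 1.55 ± 0.33 (adjusted p = 0.0359). In wild type Gstm2 read 11.87 in the testis and 9.60 and 10.11 in ovaries, a change of 2.01 ± 0.45 that missed the threshold (adjusted p = 0.0598) and was called in the class-adjusted fit (0.000725).

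The wild-type values at 12 dpc rest on 1 testis array, which the fit takes to vary like the others, and leaving out either wild-type ovary array ended the Gstm1 call. In Wv/Wv, leaving out testis array 1 or either ovary array left 0 members called at 12 dpc. That testis array also had the highest Sertoli marker level of its group, 9.43 beside 8.10 and 8.16, and the lowest mesonephros marker level, 6.20 beside 7.54 and 7.57. The mesonephros is the neighbouring tissue, and its markers read 6.83 to 7.88 in the 12 dpc ovaries. The part of these markers in the Gstm1 and Gstm2 values was not tested.

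At 14 dpc testis and ovary arrays of Gstm1 and Gstm2 did not overlap in either genotype, with 12.02 and 12.30 for Gstm1 in Wv/Wv testes against 11.56, 11.49 and 11.50 in Wv/Wv ovaries. The change of Gstm1 was 0.65 ± 0.31 in Wv/Wv and 0.76 ± 0.28 in wild type, not called over all arrays, and it was called with the class adjusted (0.67 ± 0.22, adjusted p = 0.0405, and 0.79 ± 0.20, adjusted p = 0.00583). Gstm2 stood at 0.64 ± 0.33 and 0.39 ± 0.30, called in neither fit.

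By 16 dpc the 2 mu-class genes no longer separated the sexes in the fit over all arrays. The testis minus ovary change of Gstm1 was 0.12 ± 0.28 in Wv/Wv and 0.22 ± 0.28 in wild type, and that of Gstm2 was −0.01 ± 0.30 and −0.18 ± 0.30. Without wild-type testis array 1 and with the class term, Gstm1 in wild type was higher in testes by 0.77 ± 0.25 (adjusted p = 0.0407). Gstm2 was at 0.35 ± 0.27 and not called. The testis arrays left were wide-spread and the ovary arrays narrow-spread, so both values rest on a class effect estimated from other groups. The Gstm1 probe set used has a suffix for probes that may match similar sequences, so its signal can include related mu-class transcripts. The other 3 Gstm1 probe sets tracked it with r of 0.89 to 0.99 over the 31 arrays.

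Gstt1, the theta-class enzyme, was not called higher in testes at any age. At 14 dpc its testis arrays lay above its ovary arrays in both genotypes, by 0.50 ± 0.32 in Wv/Wv and 0.49 ± 0.29 in wild type, with neither called. At 16 dpc it read 8.62, 8.65 and 8.56 in Wv/Wv testes, against 9.38, 8.68 and 9.62 in Wv/Wv ovaries. Wild-type testes read 7.20, 8.48 and 8.53 and wild-type ovaries 8.16, 8.11 and 8.39. In Wv/Wv the ovary arrays lay above the testis arrays, a change of −0.62 ± 0.29 that missed the threshold (adjusted p = 0.336) and was called lower in the class-adjusted fit (−0.62 ± 0.17, adjusted p = 0.0116). In wild type the change was −0.15 ± 0.29, with overlapping arrays.

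In counts, 2 of the 7 members were called higher in Wv/Wv testes than ovaries at 12 dpc, 4 at 14 dpc and 4 at 16 dpc, where 0.275%, 2.32% and 3.79% of all genes were called higher. In wild type 1, 4 and 4 were called higher, where 0.214%, 3.17% and 4.5% of all genes were. As the members were chosen with earlier results of these data known, these counts and shares are a description only. In limma's test 0 members were called lower in these 6 comparisons, where 0.0989%, 1.36% and 3.17% of all genes were lower in Wv/Wv and 0.0385%, 2.76% and 5.14% in wild type. There 1 (Gstt1 in Wv/Wv at 16 dpc) was lower at an unadjusted p under 0.05. With the class adjusted, 4, 5 and 4 were higher in Wv/Wv (background 1.4%, 9.6% and 10.4%) and 4, 5 and 5 in wild type (0.929%, 7.76% and 7.98%), and Gstt1 was the 1 member called lower, in Wv/Wv at 16 dpc (10.1% of genes). The median change of the members was 0.84, 1.98 and 1.73 in Wv/Wv and 1.88, 1.71 and 1.89 in wild type, while the median of all genes lay between −0.05 and 0.05. With signals under the limit set to it, a setting chosen after seeing the data, the members' median in Wv/Wv at 12 dpc was 0.36 and the others were as given.

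**Figure D2:**
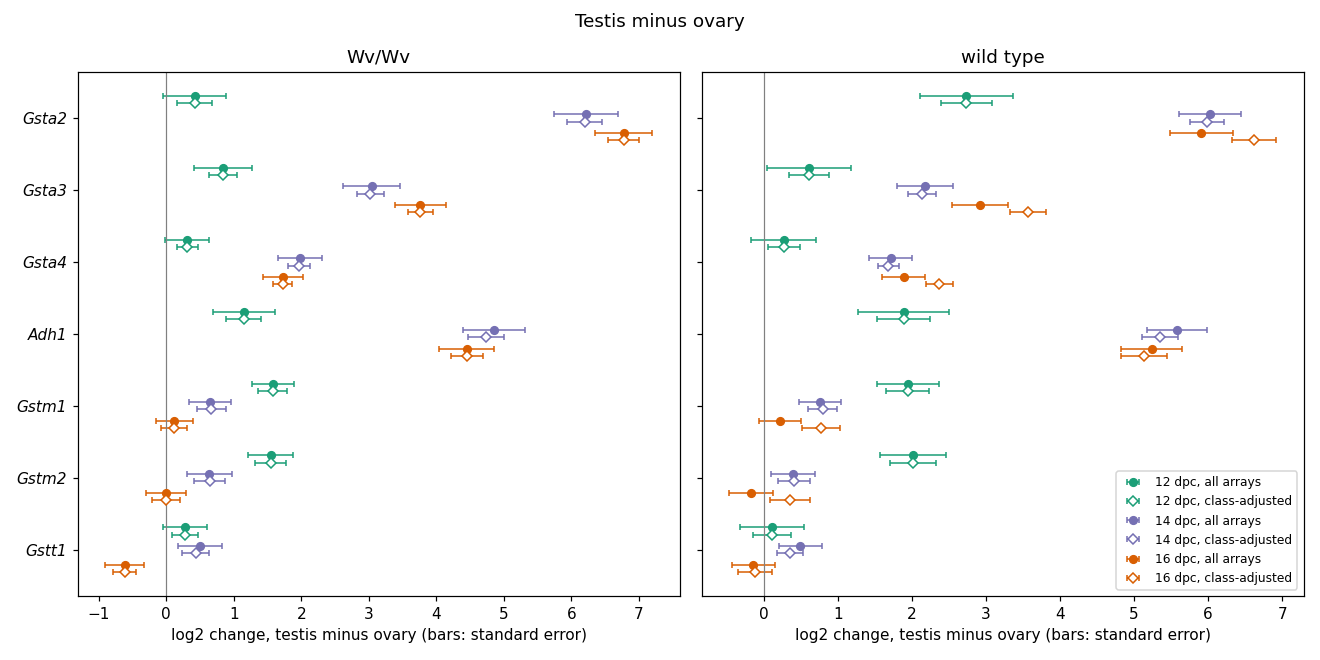
Testis minus ovary change on the log2 scale (horizontal axis, bars are standard errors) for each enzyme in Wv/Wv (left) and wild type (right) at 12, 14 and 16 dpc, from all arrays (filled) and from the class-adjusted fit (open). Adh1 exceeds 4 at 14 and 16 dpc in both genotypes, the points of Gsta2 and Gsta3 are taken against ovary signals mostly under the low limit and are not measured sizes, and the Gstm1 and Gstm2 points are highest at 12 dpc.

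Few members differed between the genotypes. Of the 7 members 0 were called between Wv/Wv and wild-type testes at 12, 14 and 16 dpc, where 0.033%, 0.594% and 0.484% of all genes were called. At an unadjusted p under 0.05 there were 1 (Gsta2), 0 and 2 (Gsta3 and Gsta4). At 12 dpc Gsta2 read 6.13, 5.35 and 5.70 in Wv/Wv testes and 7.36 in the single wild-type testis. The class-adjusted fit called this change lower (−1.63 ± 0.32, adjusted p = 0.0348, 1 of 7 members where 0.121% of genes were called), and 0 members at 14 and 16 dpc (background 0.945% and 0.995%, 0 at an unadjusted p under 0.05). At 16 dpc the changes over all arrays were 0.40 to 0.87, positive for all 7, with a median of 0.65 where the median of all genes was 0.12, and they were −0.09 to 0.32 in the class-adjusted fit.

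In ovaries the fit over all arrays called only Adh1 between the genotypes, and only at 16 dpc. Wv/Wv ovaries had 8.51, 7.60 and 8.61 for Adh1 and wild-type ovaries 6.83, 6.25 and 7.25, with no overlap. The change was 1.46 ± 0.41 (2.75-fold, adjusted p = 0.0459), the only member called of 7, where 3.74% of all genes were. The class-adjusted fit gave 0.99 ± 0.26 (adjusted p = 0.0107). The Adh1 call over all arrays was lost on leaving out any of these ovary arrays except Wv/Wv array 2, without which 2 members were called. Among the narrow-spread arrays the Wv/Wv ovary had 7.60, above the 6.25 to 7.25 of wild type.

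Gstt1 and Gsta4 were also higher in Wv/Wv ovaries at 16 dpc once the class was adjusted. Gstt1 had 9.38, 8.68 and 9.62 in Wv/Wv ovaries and 8.16, 8.11 and 8.39 in wild-type ovaries, with no overlap. Its change was 1.01 ± 0.29 over all arrays (adjusted p = 0.0537) and 0.73 ± 0.19 with the class adjusted (adjusted p = 0.0103). Gsta4 had 9.56, 9.38 and 9.76 in Wv/Wv ovaries against 8.52, 8.99 and 8.76 in wild-type ovaries, a change of 0.81 ± 0.29 (adjusted p = 0.112), or 0.74 ± 0.15 with the class adjusted (adjusted p = 0.00201). On narrow-spread arrays alone the Wv/Wv ovary had 8.68 for Gstt1 and 9.38 for Gsta4, above every wild-type value. In all, 3 members were called higher in the class-adjusted fit, where 16.5% of all genes were called in either direction. Markers of liver, another site of Adh1 expression, had mean levels of 5.42, 6.08 and 6.29 in these Wv/Wv ovaries and 5.98, 5.31 and 5.81 in the wild-type ones, and 0 of 13 were called. The mean level of the 9 markers of Leydig cells, the steroid-making cells of the testis, was 8.61, 8.08 and 8.64 in these Wv/Wv ovaries and 7.68, 7.87 and 7.86 in the wild-type ones, with 0 of 9 called. Pregranulosa markers (9.87 to 10.04 in Wv/Wv ovaries and 9.37 to 9.47 in wild-type ones), interstitial markers (9.21 to 9.43 and 8.84 to 8.95), endothelial markers (7.73 to 8.05 and 7.38 to 7.56) and mesonephros markers (6.76 to 6.95 and 6.59 to 6.67) lay above in Wv/Wv with no overlap. Germ cell markers (4.56 to 4.64 and 7.90 to 9.73) and erythroid markers (6.44 to 6.68 and 8.14 to 8.86) lay below with no overlap. The Leydig levels did not overlap either, and the part of these markers in the Adh1, Gsta4 and Gstt1 values was not tested. These marker levels were not adjusted for class, and the wild-type arrays here were all narrow-spread. Genes with a mean above the low limit had a median change of 0.23, Wv/Wv minus wild type, between these ovaries.

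At 12 and 14 dpc 0 members were called between ovaries of the 2 genotypes, where 0.0934% and 4.37% of all genes were, and 0 members had an unadjusted p under 0.05. The class-adjusted fit called 0 at 12 dpc (background 0.187%, with 1, Gsta2, at an unadjusted p under 0.05) and 2 at 14 dpc (background 20.6%), Adh1 higher by 1.03 ± 0.24 (adjusted p = 0.00366) and Gsta3 lower at −0.66 ± 0.19 (adjusted p = 0.014). Adh1 at that age had 8.21, 7.01 and 7.43 in Wv/Wv ovaries and 6.45, 6.74 and 7.08 in wild-type ovaries, which overlap. Wild-type ovary 14 dpc array 3, with the 7.08, had a liver marker level of 8.67, above 4.75 to 6.73 on every other array, and the part of this in its Adh1 value was not tested. Gsta3 had 4.85, 4.21 and 4.78 in Wv/Wv ovaries and 5.07, 5.48 and 5.39 in wild-type ovaries, mostly low signals, so no fold is given, and with signals under the limit set to it the change was −0.03.

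**Figure D3:**
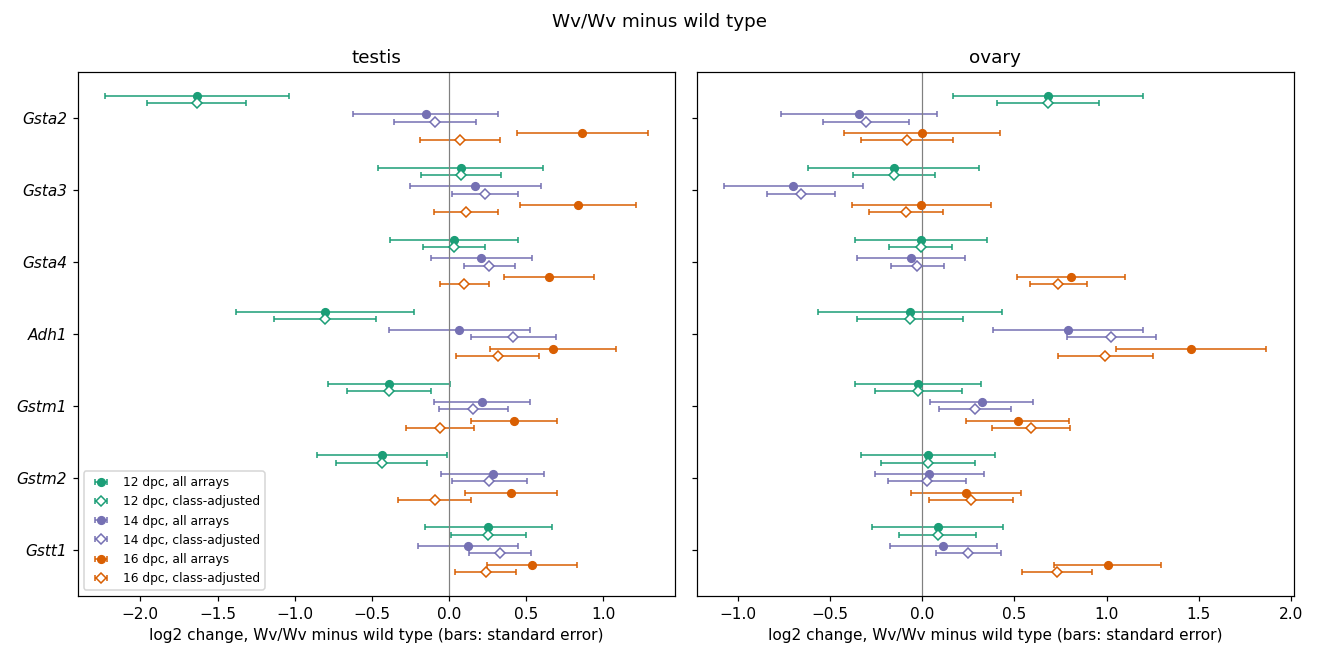
Wv/Wv minus wild-type change on the log2 scale (horizontal axis, bars are standard errors) for each enzyme in testes (left) and ovaries (right) at 12, 14 and 16 dpc, from all arrays (filled) and from the class-adjusted fit (open). Adh1, Gsta4 and Gstt1 lie above 0 in ovaries at 16 dpc in both fits, and the testis values at 16 dpc move toward 0 when the class is adjusted.

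The sex difference of the members was not called different between the genotypes over all arrays or with the class adjusted. With array weights, an alternative fit, 1 member was called at 12 dpc and 3 at 16 dpc. The share of all genes called with array weights is not given. The sex by genotype interaction was called for 0 of 7 at 12, 14 and 16 dpc in both fits, where 0%, 0.275% and 0.813% of all genes were called over all arrays and 0.0055%, 1.93% and 2.86% with the class adjusted. At an unadjusted p under 0.05 it stood at 1 member (Gsta2), 0 and 0 over all arrays, and 1 each (Gsta2, Gsta3 and Gsta4) with the class adjusted. The largest value, −2.32 ± 0.79 for Gsta2 at 12 dpc (adjusted p = 1.00), again involves the single wild-type testis array, and ovary signals under the limit. With those set to the limit it was −1.67.

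With age, the alpha-class genes and Adh1 went up in testes. Gsta2 in Wv/Wv testes averaged 5.73 ± 0.39 at 12 dpc, 9.89 ± 0.67 at 14 dpc and 10.54 ± 0.17 at 16 dpc (SD, n = 3, 2 and 3). Adh1 there averaged 9.57 ± 0.33, 12.41 ± 0.45 and 12.69 ± 0.26, and Gsta3 5.75 ± 0.19, 7.66 ± 0.03 and 8.42 ± 0.04. Most of each difference was present by 14 dpc. Between 12 and 16 dpc 4 members were called higher in Wv/Wv testes, where 3.05% of all genes were: Gsta2 by 4.82 ± 0.42, Adh1 by 3.12 ± 0.41, Gsta3 by 2.67 ± 0.38 and Gsta4 by 1.03 ± 0.29. The class-adjusted fit called 6 (background 8.78%), adding Gstm1 by 0.60 ± 0.20 and Gstt1 by 0.95 ± 0.18.

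Wild-type testes gave fewer calls over all arrays. There 1 member was called higher at 16 than at 12 dpc, Gsta2 by 2.32 ± 0.60 (adjusted p = 0.0476), where 0.945% of all genes were. Without array 1 of the 16 dpc group 4 members were called, and without array 2 or 3 of that group 0 were. In the class-adjusted fit 5 were higher (background 4.19%): Gsta2 by 3.15 ± 0.34, Gsta3 by 2.68 ± 0.27, Adh1 by 2.24 ± 0.35, Gsta4 by 1.00 ± 0.21 and Gstt1 by 0.97 ± 0.26. In limma's test 0 members were called lower in testes of either genotype, at an adjusted or an unadjusted p under 0.05, where 2.34% of genes were in Wv/Wv and 0.704% in wild type (8.49% and 2.55% with the class adjusted). The wild-type values rest on the single 12 dpc array, with 7.36 for Gsta2, 5.67 for Gsta3, 10.37 for Adh1, 10.23 for Gsta4 and 7.54 for Gstt1.

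In ovaries it was the mu-class genes that went up. Gstm1 averaged 9.86 ± 0.10, 11.51 ± 0.04 and 11.95 ± 0.16 in Wv/Wv ovaries at 12, 14 and 16 dpc (SD, n = 2, 3 and 3), and 9.88 ± 0.31, 11.19 ± 0.16 and 11.43 ± 0.06 in wild-type ovaries. Gstm2 averaged 9.89 ± 0.32, 11.57 ± 0.06 and 11.91 ± 0.18 in Wv/Wv ovaries, against 9.86 ± 0.36, 11.53 ± 0.16 and 11.68 ± 0.14 in wild-type ovaries. The 12 dpc arrays did not overlap the later ones. Ovary marker levels moved over the same ages, pregranulosa markers reading 8.40 to 9.30 at 12 dpc and 9.37 to 10.04 at 16 dpc, and mesonephros markers 6.83 to 7.88 and 6.59 to 6.95. The mesonephros level correlated with Gstm1 at −0.80 and Gstm2 at −0.76 over the 12 group means. This was not particular to the mu-class genes, with −0.83 for Gsta3, −0.80 for Gsta2, −0.75 for Adh1, −0.61 for Gsta4 and −0.48 for Gstt1. The part of the mesonephros markers in these changes was not tested. From 12 to 16 dpc Gstm1 rose by 2.09 ± 0.31 (adjusted p = 0.000159) in Wv/Wv and by 1.55 ± 0.31 (adjusted p = 0.00301) in wild type, and Gstm2 rose by 2.03 ± 0.33 and 1.82 ± 0.33. Gstt1 rose by 1.71 ± 0.32 (adjusted p = 0.00227) in Wv/Wv ovaries, with group means of 7.52 ± 0.31, 8.04 ± 0.37 and 9.23 ± 0.49 at the 3 ages. In wild-type ovaries Gstt1 changed by 0.78 ± 0.32, not called, and by 1.19 ± 0.23 with the class adjusted (adjusted p = 0.00099).

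Adh1 and Gsta4 went the other way in wild-type ovaries. Adh1 averaged 8.49 ± 0.54, 6.76 ± 0.32 and 6.78 ± 0.50 there at 12, 14 and 16 dpc and fell by 1.71 on the log2 scale (SE 0.46, adjusted p = 0.0241) from 12 to 16 dpc. Gsta4 averaged 9.96 ± 0.20, 9.26 ± 0.06 and 8.76 ± 0.23 and fell by 1.21 (SE 0.33, adjusted p = 0.0259). In Wv/Wv ovaries the same changes were −0.18 ± 0.46 for Adh1 and −0.39 ± 0.33 for Gsta4, neither called, and the difference between the genotypes in this age change was not tested. In wild-type ovaries the 12 dpc arrays were all wide-spread and the 16 dpc arrays all narrow-spread, so age and class coincided. With the class adjusted the wild-type changes were −1.01 ± 0.31 for Adh1 and −1.10 ± 0.18 for Gsta4. In Wv/Wv ovaries they were 0.05 ± 0.27 and −0.355 ± 0.161. So 3 members were called higher and 0 lower in Wv/Wv ovaries, where 2.22% and 1.47% of genes were, and 2 higher and 2 lower in wild-type ovaries, where 3.01% and 4.67% were. Leaving out wild-type ovary 12 dpc array 1 ended all 4 calls in wild type, and leaving out 12 dpc array 2 or 16 dpc array 1 left 2. The class-adjusted counts were 3 higher and 1 lower in Wv/Wv (background 10.1% and 6.87%), where Gsta2 was the 1 lower (adjusted p = 0.000233, though only 1 of its 5 arrays was above the limit), and 3 higher and 2 lower in wild type (7.04% and 4.7%).

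From 14 to 16 dpc 0 of 7 members were called in any of the 4 tissues and genotypes over all arrays. The background was 0.11% in Wv/Wv testes, 0.83% in wild-type testes, 0.0989% in Wv/Wv ovaries, and among wild-type ovaries 0.357%. At an unadjusted p under 0.05 there was 1 member, Gstt1 in Wv/Wv ovaries. The class-adjusted fit called 2: Gsta3 higher in wild-type testes by 0.87 ± 0.20 (adjusted p = 0.0202, background 2.61%) and Gstt1 higher in Wv/Wv ovaries by 1.05 ± 0.18 (adjusted p = 0.00273, background 1.1%). In Wv/Wv testes and wild-type ovaries it called 0, where 0.693% and 1.26% of all genes were called, and 2 and 3 members had an unadjusted p under 0.05.

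The age change therefore differed between testis and ovary, and this difference was itself tested. In Wv/Wv the 16 minus 12 dpc change in testes exceeded that in ovaries by 6.36 ± 0.63 for Gsta2 (adjusted p = 2.14e-06), 3.30 ± 0.61 for Adh1 (0.00417) and 2.92 ± 0.57 for Gsta3 (0.00647), 3 members where 0.555% of all genes were called in that direction. Most ovary signals of Gsta2 and Gsta3 were under the limit, and with those set to it the values were 4.85 ± 0.61 for Gsta2 (adjusted p = 7.67e-05) and 2.67 ± 0.55 for Gsta3 (0.00948), still called. In wild type Adh1 was called, at 3.35 ± 0.74 (adjusted p = 0.0284, 1 member where 0.242% of genes were). Gsta2 in wild type was not called (adjusted p = 0.0558), and its value with signals set to the limit was 2.32 ± 0.73. With the class adjusted all 7 members were called in Wv/Wv, where 6.65% of all genes were, with Gsta2, Gsta3, Gsta4 and Adh1 moving toward testis and Gstm1, Gstm2 and Gstt1 toward ovary. In wild type 5 were called (background 3.56%), Gsta2, Gsta3, Gsta4 and Adh1 toward testis and Gstm2 toward ovary. Leaving out Wv/Wv ovary 12 dpc array 1 left 1 call in Wv/Wv over all arrays, and in wild type leaving out ovary 16 dpc array 1 or 2 or ovary 12 dpc array 1 left 0 while leaving out testis 16 dpc array 1 gave 5.

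Over the 12 group means the members fell into blocks. Gsta2, Gsta3, Gsta4 and Adh1 correlated with each other at r of 0.91 to 0.98, and Gstm1 with Gstm2 at 0.98. Between these blocks r was 0.23 to 0.52. Gstt1 correlated with Gstm1 at 0.70 and Gstm2 at 0.67, and with the alpha-class genes and Adh1 at 0.18 to 0.30. These are descriptions over 12 means that share sex, age and array class.

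In the order of the 12 groups, most neighbours overlapped. Of the 11 neighbouring pairs, arrays overlapped in 6 for Gsta2, 8 for Gsta3, 7 for Gsta4, 8 for Adh1, 9 for Gstm1, 9 for Gstm2 and 9 for Gstt1. The top 4 groups for Adh1, Wv/Wv testes at 16 and 14 dpc and wild-type testes at 14 and 16 dpc, overlapped from each to the next, and the gap below them was 1.64. For Gstt1 the Wv/Wv ovaries at 16 dpc (9.23 ± 0.49, SD, n = 3) lay above the next group, Wv/Wv testes at 16 dpc (8.61 ± 0.04, n = 3), with no overlap.

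The genes most like each member were taken from 13060 genes with a mean above the low limit, by r over the 12 group means. For Gsta2 they were Slc45a3, a solute carrier (0.985), Adh1 (0.978) and Tacr3, a tachykinin receptor (0.976). For Gsta3 they were Nsdhl (0.992) and Tm7sf2 (0.989), enzymes of sterol synthesis, and Fads2, a fatty acid desaturase (0.983). For Gsta4 they were Mob4 (0.993), the protease Adamts7 (0.989) and the desaturase Fads1 (0.987), and for Adh1 they were Fndc4 (0.982), the lysosomal protease Ctsl (0.981) and Gsta2. The mu-class pair was nearest to itself and to Gstm6, at 0.976 for Gstm1 and 0.991 for Gstm2, followed by Aldh1a1, a retinaldehyde dehydrogenase (0.952 for Gstm1), and Gatm, of creatine synthesis (0.970 for Gstm2). Gstt1 had the lowest likeness, with Zhx3 (0.937), Echdc3 (0.935) and Ncoa1, a coactivator of nuclear receptors (0.925).

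Few of the other glutathione transferases were called between testis and ovary at 16 dpc. For all lists at that age, 3.79% of all genes were higher and 3.17% lower in Wv/Wv, and 4.5% and 5.14% in wild type, so counts near these shares say nothing particular of a list. Of 22 other transferases listed, 18 were measured, and 0 were called higher and 1 lower in Wv/Wv testes than ovaries at 16 dpc, Gstt3 at −1.23 ± 0.25. In wild type 0 were higher and 2 lower, Mgst3 at −1.35 ± 0.41 and Gstt4, with both means under the low limit. At 12 dpc Gstm6, a mu-class gene, was higher in testes by 2.81 ± 0.33 in Wv/Wv and 3.21 ± 0.44 in wild type, and Gstm7 by 1.46 ± 0.31 in Wv/Wv, in the same direction as Gstm1 and Gstm2. The wild-type value rests on the single testis array of that age. Gstm6 also rose in ovaries from 12 to 16 dpc, by 4.05 ± 0.33 in Wv/Wv and 3.38 ± 0.33 in wild type. Similar sequences can share probes among the mu-class genes. In the class-adjusted fit 1 was higher and 3 lower in Wv/Wv testes at 16 dpc (background 10.4% and 10.1%) and 2 and 2 in wild type (7.98% and 8.11%), and the Mgst3 and Gstt4 calls ended. The median change of the 18 at 16 dpc was −0.01 in Wv/Wv and −0.12 in wild type.

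A minority of the genes of glutathione supply were called lower in Wv/Wv ovaries. Of 25 measured genes of glutathione synthesis and recycling, 0 were higher and 5 lower in Wv/Wv than in wild-type ovaries at 14 dpc. At 16 dpc the counts were 0 and 2, and 4.37% and 3.74% of all genes were called in either direction at these ages. The class-adjusted counts were 1 and 8 at 14 dpc and 2 and 5 at 16 dpc, where 20.6% and 16.5% of all genes were called in either direction. No share for lower calls alone is given. Lower at both ages were both subunits of the enzyme that makes the first bond of glutathione, Gclc at −1.66 ± 0.22 and −1.46 ± 0.22, and Gclm at −1.65 ± 0.24 and −1.63 ± 0.24, at 14 and 16 dpc. Germ cell markers moved with them, with 11 of 11 measured markers called lower at 14 dpc and 8 at 16 dpc, and the part of that in the Gclc and Gclm values was not tested. Between testis and ovary at 16 dpc, 2 of the 25 were higher and 0 lower in Wv/Wv, Gpx3, the secreted glutathione peroxidase, by 1.74 ± 0.29 and the amino acid transporter subunit Slc3a2 by 0.90 ± 0.23. In wild type 0 were higher and 3 lower, the peptidase Anpep (testis mean under the low limit), Gclm (−1.26 ± 0.24) and Gpx1 (−1.11 ± 0.28). The Gpx1 call ended in the class-adjusted fit, where the counts were 5 and 5 in Wv/Wv and 4 and 3 in wild type.

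Among 19 alcohol and aldehyde dehydrogenases other than Adh1, 2 were higher in Wv/Wv testes than ovaries at 16 dpc and 3 in wild type, with 0 lower. Aldh1l1, a folate enzyme, was higher by 2.13 ± 0.36 in Wv/Wv and 2.44 ± 0.36 in wild type, Aldh3b1 by 1.37 ± 0.31 and 1.01 ± 0.31, and Adhfe1 was called in wild type, with an ovary mean under the low limit. The class-adjusted fit gave 4 higher and 4 lower in Wv/Wv and 3 and 0 in wild type, where the Aldh3b1 call ended. At 12 dpc 2 were called higher in each genotype, where 0.275% of all genes were in Wv/Wv and 0.214% in wild type. They were Aldh1a1, which makes retinoic acid, by 2.03 ± 0.45 in Wv/Wv and 2.96 ± 0.60 in wild type, and Adhfe1 by 1.97 ± 0.40 and 2.82 ± 0.54. These wild-type values rest on the single testis array of that age. Of 17 retinoid-handling genes, Cyp26b1, which breaks down retinoic acid, was higher in testes at 16 dpc by 1.89 ± 0.29 in Wv/Wv and 1.98 ± 0.29 in wild type. It was the only one called higher at that age, and Crabp1, a retinoic acid binding protein, was lower in Wv/Wv (−2.12 ± 0.51). The class-adjusted counts were 2 and 2 in Wv/Wv and 1 and 0 in wild type.

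Of 22 measured genes of the Nrf2 pathway, which includes many targets of this sensor of oxidative stress, 2 were higher in Wv/Wv testes at 16 dpc and 4 in wild type, with 0 lower. Ephx1, the microsomal epoxide hydrolase, was higher by 4.05 ± 0.40 in Wv/Wv and 4.09 ± 0.40 in wild type, and Me1, malic enzyme, by 1.83 ± 0.38 and 1.67 ± 0.38. Aox1, an aldehyde oxidase, and Osgin1 were called in wild type, with ovary means under the low limit. The Aox1 call ended in the class-adjusted fit, where 5 were higher and 4 lower in Wv/Wv and 3 and 3 in wild type. The medians of the 22 were 0.27 and −0.02. Of 31 other drug and steroid metabolising enzymes, 4 were higher and 5 lower in Wv/Wv testes, and 4 and 4 in wild type. Cyp51, of sterol synthesis, was higher by 3.34 ± 0.45 in Wv/Wv and 2.92 ± 0.45 in wild type. Akr1c14, a steroid reductase, was lower in Wv/Wv and in wild type (−4.04 ± 0.62 and −2.70 ± 0.62), as was Akr1c18, which inactivates progesterone (−2.22 ± 0.21 and −0.95 ± 0.21), and Ugt8a, a galactosyltransferase of lipids, was lower in wild type, with a testis mean under the low limit. The class-adjusted counts for this list were 5 and 8 in Wv/Wv and 6 and 3 in wild type.

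**Figure D4:**
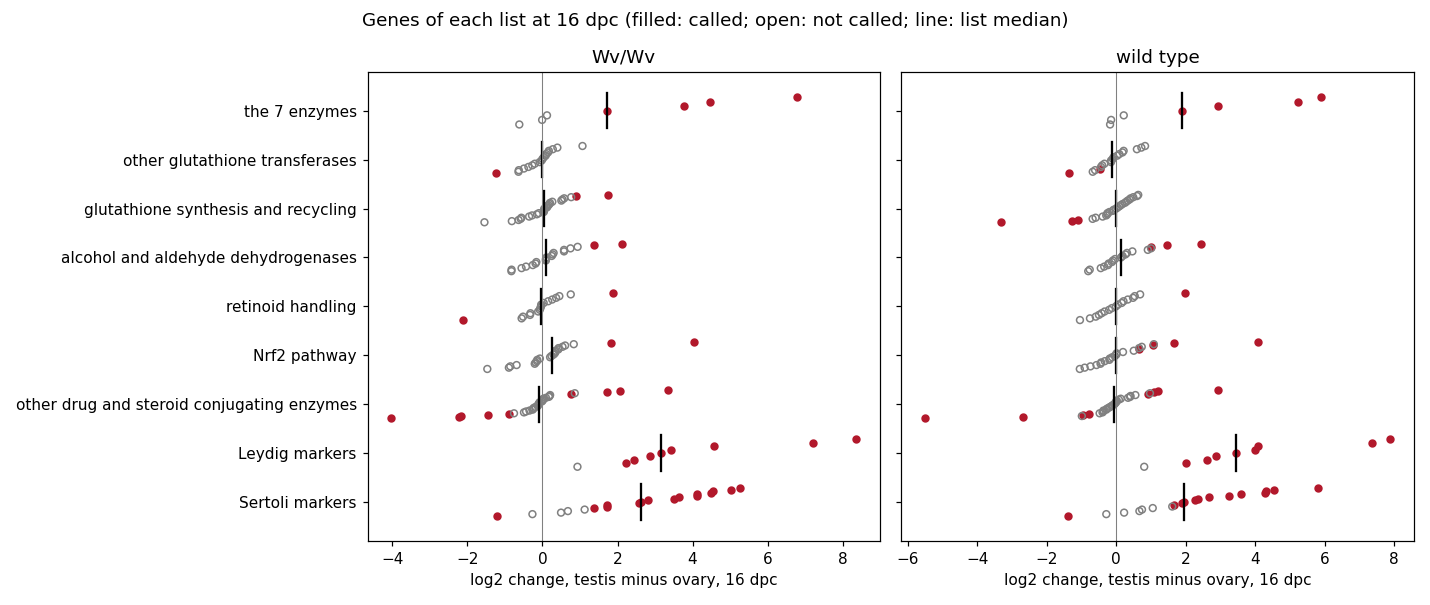
Testis minus ovary change on the log2 scale at 16 dpc (horizontal axis) of each measured gene of the lists named on the vertical axis, in Wv/Wv (left) and wild type (right), with called genes filled and list medians as lines. The 7 enzymes have medians of 1.73 and 1.89, the Leydig and Sertoli markers lie mostly above 0, and the 6 pathway lists have medians between −0.12 and 0.27 with single genes far out.

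Somatic cell markers moved with the testis-high members. Mean levels of the 9 Leydig markers were 7.79 to 12.43 on testis arrays and 7.37 to 8.64 on ovary arrays. By age the testes had 7.79 to 8.69 at 12 dpc, 11.68 to 12.16 at 14 dpc and 10.60 to 12.43 at 16 dpc, with overlap between the sexes only at 12 dpc. Of the 9, 8 were called higher in testes at 14 and at 16 dpc in both genotypes and 0 at 12 dpc, among them Cyp11a1 by 8.36, Cyp17a1 by 7.22 and Star by 4.58 in Wv/Wv at 16 dpc. Sertoli markers, 19 measured, were 8.10 to 9.79 on testis arrays and 6.37 to 7.01 on ovary arrays, already apart at 12 dpc. Pregranulosa markers, of the supporting cells of the ovary, ran the other way, with 11 of 12 called lower in testes at 16 dpc in each genotype. Over the 12 group means the Leydig level correlated with Gsta3 at 0.96, Gsta2 at 0.93, Adh1 at 0.91 and Gsta4 at 0.84, and with Gstm1 at 0.62 and Gstt1 at 0.48. The Sertoli level was as close, at 0.91 for Gsta2 and Adh1, 0.88 for Gsta3 and 0.84 for Gsta4, and the pregranulosa level ran at −0.94 to −0.89 with these 4. The interstitial and peritubular level correlated with Adh1 at 0.95 and with Gsta2, Gsta3 and Gsta4 at 0.92 to 0.93. Adrenal cortex markers were 5.45 to 8.21 in testes and 5.30 to 6.79 in ovaries, with 4 of 6 called higher in Wv/Wv testes at 16 dpc and 3 in wild type, and 1 of the 6 is also a Leydig marker. Which cells carried the enzymes was not tested, and the part of these markers in their changes was not tested.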

How the data were processed

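Each array measured total RNA of 1 gonad sample. The values are the deposited log2 signals, which the submitters' processing notes name as RMA values, for 45101 probe sets on 31 arrays. No further scaling was applied. The 7 members and all gene lists were chosen with earlier results of these data known. Of 35890 annotated probe sets, 34958 had 1 symbol and 932 several, which were not used. At most 4 genes per list and comparison are named, those called with the largest changes, and for likeness the 3 genes with the highest r. Groups came from the labels. limma 3.58.1 (R 4.3.3) fitted 1 mean per group over all 31 arrays, with Benjamini-Hochberg adjustment over 18194 genes. Tables and plots used Python 3.11.15 (pandas 2.3.3, numpy 2.4.6, matplotlib 3.10.9). On simulated data for testis against ovary in Wv/Wv at 16 dpc, 43% of genes changed by 1 on the log2 scale and 89% changed by 2 were recovered (100 genes each among 18194), with 10 false calls. The number of arrays limits the precision. Of 27 pairs of arrays within groups, 0 were duplicates. Of 44 same-number pairs of arrays 17 correlated above 0.1. All 3 pairs did so only for Wv/Wv and wild-type testes at 16 dpc (0.60 to 0.72), where array 1 was narrow-spread in both genotypes and a replicate block left 0 members called. Where only 2 pairs existed, both did so for Wv/Wv testes and ovaries at 14 dpc (0.85 and 0.64). The same held for ovaries of the 2 genotypes at 12 dpc (0.46 and 0.46) and wild-type ovaries at 16 and 12 dpc (0.18 and 0.15). Alternatives covered the array class, array weights, other normalizations, other summaries of probe sets, a replicate block, each array left out and, added after seeing the data, signals under the limit set to it.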

Additional observations from a re-analysis of the deposited data

Results flagged for a closer look

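The age change of several members differed between testis and ovary by the test of that difference, the 16 minus 12 dpc change in testes minus that in ovaries on the log2 scale. Over all arrays this was so in Wv/Wv for Gsta2 (6.36), Adh1 (3.30) and Gsta3 (2.92), and in wild type for Adh1 (3.35). With the array class adjusted, Gsta4 (1.42), Gstm1 (−1.45), Gstm2 (−1.55) and Gstt1 (−0.89) also passed in Wv/Wv. In wild type Gsta2 (3.89), Gsta3 (2.96), Gsta4 (2.10) and Gstm2 (−1.66) passed in that fit. Positive values were the alpha-class genes and Adh1, which went up more in testes, and negative values were Gstm1, Gstm2 and Gstt1, which went up more in ovaries. Most ovary signals of Gsta2 and Gsta3 were under the low limit, so their values are not exact sizes. With those set to the limit in the fit over all arrays, they were 4.85 and 2.67 in Wv/Wv, still called. In wild type they were 2.32 and 1.91, not called, and that fit did not call them without this setting either. The class-adjusted values were not computed with signals set to the limit. All wild-type values rest on 1 testis array at 12 dpc. No group had 4 or more arrays, so single arrays far from their group were not tested.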

How the results depend on the processing

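Of 68 changes of single members, each called over all arrays or in the class-adjusted fit, the class-adjusted fit kept 36 on their side of the threshold. The 32 it moved past the threshold were counted only because it called them, and changes called in neither fit were left out. Array weights kept 39 and moved 29, and cyclic loess kept 49 and moved 19. Only 1 change reversed sign outside the fits that left out an array: Gsta3 from 14 to 16 dpc in wild-type testes, not called, was 0.0957 over all arrays and −0.0175 with the mean over its probe sets. The number of the 7 members called moved as follows. With the class adjusted it was 4 for testis against ovary at 12 dpc in Wv/Wv and 4 in wild type, 1 for Wv/Wv against wild type in testes at 12 dpc, 2 in ovaries at 14 dpc and 3 at 16 dpc, 5 for 16 against 12 dpc in wild-type testes, 1 for 16 against 14 dpc in wild-type testes and 1 in Wv/Wv ovaries, and 7 and 5 for sex by age in Wv/Wv and wild type. With array weights those counts were 4, 4, 2 (testes), 4 (ovaries at 16 dpc), 5, 1, 1, 7 and 6, with 5 in Wv/Wv ovaries and 7 in Wv/Wv testes for 16 against 12 dpc, 2 in wild-type ovaries for 16 against 14 dpc, and 1 and 3 for sex by genotype at 12 and 16 dpc. Cyclic loess, quantile scaling and housekeeping centring each gave 3 for testis against ovary in wild type at 12 dpc, 1 for genotype in ovaries at 14 dpc, 1 for 16 against 14 dpc in Wv/Wv ovaries and 6 for sex by age in Wv/Wv. They gave 4, 3 and 5 for 16 against 12 dpc in wild-type testes, 2, 3 and 3 for genotype in ovaries at 16 dpc, and 4, 4 and 5 for sex by age in wild type. Testing every probe set gave 0 for 16 against 12 dpc in wild-type testes and 0 for testis against ovary in wild type at 12 dpc. The mean over probe sets gave 2 for each of these, 2 for genotype in ovaries at 16 dpc and 3 for sex by age in wild type. Fitting only the arrays compared gave 0 for 16 against 12 dpc in wild-type testes, genotype in ovaries at 16 dpc, sex by age in wild type and testis against ovary at 12 dpc in both genotypes, and 2 for testis against ovary in wild type at 16 dpc. Setting signals under the limit to it, chosen after seeing the data, kept 67 of the 68 changes on their side and gave 2 for genotype in ovaries at 16 dpc. With the replicate number as a block, testis against ovary at 12 dpc gave 1 in Wv/Wv and 0 in wild type, 16 against 12 dpc in wild-type testes gave 0, and no other count moved by over 1.5 times. Leaving out 1 array at a time gave 0 to 2 for testis against ovary in Wv/Wv at 12 dpc, 0 to 0 in wild type at 12 dpc and 4 to 5 at 16 dpc, 0 to 2 for genotype in ovaries at 16 dpc, 3 to 4 in Wv/Wv testes, 0 to 4 in wild-type testes, 2 to 3 in Wv/Wv ovaries and 0 to 3 in wild-type ovaries for 16 against 12 dpc, 0 to 1 for 16 against 14 dpc in Wv/Wv ovaries, and 1 to 3 and 0 to 5 for sex by age in Wv/Wv and wild type. Gsta3 from 14 to 16 dpc in wild-type testes ranged over −0.3628 to 0.8665, with −0.2167 and −0.1138 among the reversed values, and Gstm1 for testis against ovary in wild type at 16 dpc over −0.0246 to 0.6577 (0.22 over all arrays). Housekeeping centring moved the median of all genes to as much as 0.43, for 16 against 12 dpc in wild-type testes. The cause of these moves was not tested, except that fewer arrays were fitted where only the compared ones were used. Values below 5.39 limit what can be said of Gsta2 and Gsta3 in ovaries.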
